A study of Homo sapiens with 5 samples.

Results

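Theophylline was compared with the vehicle control by RRBS (reduced representation bisulfite sequencing), in which DNA is cut at CCGG, treated with bisulfite and sequenced to find how much of each CpG site was methylated. The cells were human iPSCs of the line 201B7 (HPS0063), genotype WT, and each group was a single library, of cells kept for 48 h with theophylline at 1 µM, with 0.1% DMSO as the vehicle control, with propyl gallate at 1 µM, with etoposide at 1 nM or with 5-aza-dc at 10 nM. The comparison takes 2 of the 5 libraries and all 288391 windows of 1000 bases that the deposited table holds. The question is which genes, sections and loci of the methylome differed after theophylline, beyond the scatter between the other libraries. Because no condition was repeated, Fisher's exact test on a window compares a pair of libraries and not the conditions, and no spread between cultures could be measured. That scatter was measured in a pair of ways: by the same counts for the other pairs of libraries, and by the range of the other 4 libraries, which was asked of each library in turn. The line was made from fibroblasts and is 1 clone.

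Theophylline is a methylxanthine used against asthma. It inhibits the phosphodiesterases that break down cAMP and blocks adenosine receptors, and it is cleared by the cytochrome CYP1A2. A rise in cAMP activates protein kinase A, which phosphorylates the transcription factor CREB. CpG methylation is laid down by the DNMT enzymes, removed through the TET enzymes, and in pluripotent cells covers most of the genome while most promoter CpG islands stay unmethylated.

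The β-value of a window is the share of its CpG calls that were methylated. The theophylline library held 194185846 calls in these windows, with a median of 427 a window, and the vehicle control 228919184, with a median of 499. The other libraries held 188844850 to 205207822. Calls are not independent molecules, so all intervals and p-values cover counting error only, and calls worked back from the authors' scaled values can differ by rounding from the β-values beside them.

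The labelled cell type was checked on marker genes. The window at the main start of POU5F1, a core pluripotency factor, from 31170001 to 31171000 on chromosome 6, had a β-value of 0.943% in the vehicle control and 1.28% after theophylline. The SOX2 window from 181712001 on chromosome 3 had 0.427% and 0.804%, and that of SALL4 over the gene start 0.536% and 0.715%. ZFP42, another marker, was at 60.9% and 60.0% over its start. At the start that the table gives for POU5F1, far upstream, the window from 31180001 had 87.9% and 87.3%. LIN28A had 0.821% and 2.03% over its start, and DPPA4 0.525% and 1.15%. Neither NANOG nor SOX2 had a window over the start given for it. The NANOG window from 7794001 on chromosome 12, not over that start, was methylated, at 97.2% and 91.9%, with the others at 93.4% to 96.6%. Of the fibroblast markers, TWIST2 was at 56.2% and 60.5% over its start, whereas the other 4 with such a window had low levels in both libraries: COL1A2 3.04% and 2.59%, TWIST1 0.725% and 0.795%, FBN1 0.855% and 1.03%, and COL1A1 8.48% after theophylline.

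Promoters of some genes described further on, picked with the results known, are shown here. Each runs from 250 bases before to 50 after the start of the gene in RefSeq on GRCh38.p14, from 5′ to 3′ on the strand of the gene. CpG sites, the only bases whose methylation counts in the β-value, are in capitals. The promoters of EPB41L4A-AS1 (chr5:112160276-112160575, plus strand) and COQ10A (chr12:56266692-56266991, plus strand) and that of LDAH (chr2:20823052-20823351, minus strand) lie wholly in the window described, and 229 of the 300 bases of CDKN2D (chr19:10568930-10569229, minus strand) do.
EPB41L4A-AS1: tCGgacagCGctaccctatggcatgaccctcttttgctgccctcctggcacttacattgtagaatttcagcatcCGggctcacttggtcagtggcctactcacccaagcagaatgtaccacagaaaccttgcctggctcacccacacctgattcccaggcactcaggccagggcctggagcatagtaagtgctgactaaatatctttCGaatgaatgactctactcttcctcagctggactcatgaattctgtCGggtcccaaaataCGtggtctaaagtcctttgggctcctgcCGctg
COQ10A: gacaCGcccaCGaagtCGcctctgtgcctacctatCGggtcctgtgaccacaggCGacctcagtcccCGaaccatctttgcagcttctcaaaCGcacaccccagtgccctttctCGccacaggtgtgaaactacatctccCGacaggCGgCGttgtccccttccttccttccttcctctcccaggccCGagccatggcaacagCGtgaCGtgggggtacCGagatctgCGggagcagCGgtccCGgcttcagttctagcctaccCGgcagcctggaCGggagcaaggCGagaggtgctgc
CDKN2D: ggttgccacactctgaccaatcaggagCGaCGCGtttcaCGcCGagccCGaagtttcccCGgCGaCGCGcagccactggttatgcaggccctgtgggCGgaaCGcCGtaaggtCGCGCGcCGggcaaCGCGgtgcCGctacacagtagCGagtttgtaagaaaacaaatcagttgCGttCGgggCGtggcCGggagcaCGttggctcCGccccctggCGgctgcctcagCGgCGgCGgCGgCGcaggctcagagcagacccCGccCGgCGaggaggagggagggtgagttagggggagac
LDAH: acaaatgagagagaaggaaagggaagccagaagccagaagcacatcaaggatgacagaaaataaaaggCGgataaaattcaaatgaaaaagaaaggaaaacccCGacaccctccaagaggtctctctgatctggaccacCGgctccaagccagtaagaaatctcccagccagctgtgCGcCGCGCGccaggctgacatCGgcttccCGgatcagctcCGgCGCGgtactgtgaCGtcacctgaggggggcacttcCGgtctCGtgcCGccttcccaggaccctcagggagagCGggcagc
The 300 bases hold 7 CpG sites in EPB41L4A-AS1, 21 in COQ10A, 36 in CDKN2D and 17 in LDAH. The median of the 35116 promoters in the RefSeq table was 14, and 96.0% of them hold at least 1. CCGG, which reads alike on both strands, occurs 1 time in EPB41L4A-AS1, 2 times in COQ10A, 4 times in CDKN2D and 4 times in LDAH, and 63.1% of all promoters hold it. The cAMP response element TGACGTCA, also the same on both strands and overlapping a CpG site, occurs 1 time in LDAH and not in the other three, and 1.85% of all promoters hold it. A match is a description of the sequence and not a bound site, and counts in picked promoters are not a rate.

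Methylation after theophylline was higher across the genome by a small amount. The mean β-value over all windows was 80.4% after theophylline and 79.4% in the vehicle control. Etoposide had 79.9%, propyl gallate 79.9% and 5-aza-dc 78.4%, so the theophylline library was the highest of the 5. The difference from the vehicle control was 0.975 points (counting SE 0.0052), against 0.513 after etoposide, 0.566 after propyl gallate and -1.03 after 5-aza-dc. Etoposide and propyl gallate differed from each other by 0.0526 points. The theophylline library was also 0.462 points above etoposide and 0.410 above propyl gallate. The vehicle control was below 3 of the 4 other libraries, so that each difference from it depends on that 1 library.

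The size of the difference from the vehicle control varied with how methylated a window was. Windows were classed by the mean of the 3 libraries outside the comparison. In the 18214 windows under 2%, mostly unmethylated islands, the mean went from 1.13% to 1.17%, a difference of 0.0406 points. It was 0.0961 points at 2% to 10%, 0.521 at 10% to 30%, 1.04 at 30% to 70%, 1.28 at 70% to 90% and 1.01 at 90% and over. Against the mean of the other 4 libraries, which include the 3 that set the classes, these differences were 0.171, 0.415, 1.35, 2.04, 2.100 and 0.493 points, so the order of the classes depended on the reference. The other chemicals are not compared with theophylline within a class. The classes of each chemical were cut on the 3 libraries other than it and the vehicle control, so they can hold different windows.

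**Figure D1:**
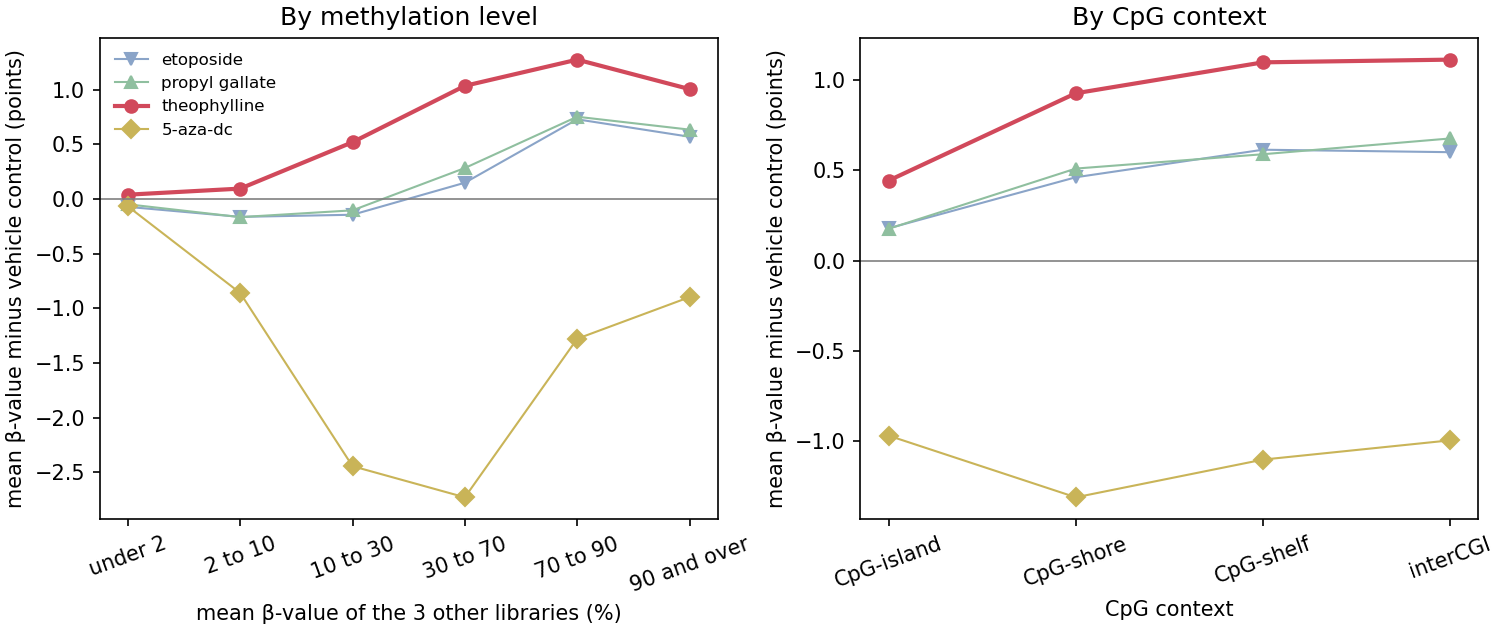
Mean β-value of each chemical minus the vehicle control, in percentage points (y axis), by methylation level of the windows (left) and by CpG context (right), 1 library a point. Theophylline lies above the other 3 chemicals in each context, from 0.442 points in islands to 1.11 far from them. On the left, the classes of each chemical were cut on the 3 libraries other than it and the vehicle control. They can thus hold different windows for each chemical.

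CpG islands differed least by the mean over windows, but most with calls pooled over windows, at 1.20 points against 1.14 in shores, 1.11 in shelves and 1.153 far from islands. Over 49761 island windows the mean was 41.5% in the vehicle control, and theophylline was 0.442 points above it. Shores, the flanks of islands, differed by 0.925 points, shelves beyond them by 1.096 and windows far from islands by 1.11. Among the parts of genes, promoters differed by 0.574 points and 5′ UTRs by 0.310, while introns differed by 1.096 and intergenic windows by 1.07. Within promoters, the windows in islands went from 19.3% to 19.5%, a difference of 0.233 points, and those far from islands from 79.0% to 80.1%, a difference of 1.07. Theophylline was above etoposide and propyl gallate in each of these sections. The share of windows in which theophylline was the highest library was alike in all contexts, from 27.4% in windows far from islands to 27.9% in shores.

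All 22 autosomes and chromosome X were higher after theophylline. The lowest difference was 0.767 points on chromosome 19 and the highest 1.08 on chromosome 10, and chromosome X differed by 0.976. The ranges over these chromosomes were 0.416 to 0.644 for etoposide and 0.431 to 0.686 for propyl gallate, so the theophylline range did not overlap them. Chromosomes are parts of the same single libraries, so this restates the difference over all windows and is no separate observation. The share of calls on each chromosome was between 0.996 and 1.01 times that of the vehicle control. The 9 mitochondrial windows, which carry little methylation, had a mean of 0.520% in the vehicle control and 0.517% after theophylline. Of 2802 stretches of 1000000 bases with at least 20 windows, 93.3% were above the vehicle control, with a median difference of 0.996 points. Theophylline was the highest library in 1796 of them and the lowest in 17, against 437 and 76 for etoposide and 491 and 34 for propyl gallate. Among the stretches in which theophylline was highest, the largest difference was on chromosome 3 from 70000001 to 71000000, at 90.8% and 94.8%, with etoposide next at 94.4%. In the stretch of chromosome 9 from 62000001 to 63000000, theophylline had 60.5% and the other libraries 53.7% to 56.9%. Of the stretches with theophylline lowest, the one farthest below the vehicle control was on chromosome 10 from 108000001 to 109000000, at 77.5% and 75.7%, and the next stretch to its left, from 107000001, had 82.1% and 80.9%.

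Single windows were tested next. At an adjusted p under 0.01 (Fisher's exact test, Benjamini-Hochberg over all windows), theophylline was higher in 23448 windows (8.13%) and lower in 8252 (2.86%). With a difference of at least 25 points as well, 305 windows (0.106%) were higher and 200 (0.0694%) were lower. Against the other 4 libraries together, 98 were higher and 147 lower, so this balance turned with the reference. The other pairs without 5-aza-dc gave 503 to 564 windows in all, and theophylline against the vehicle control gave 505. The number of large single-window differences thus lay within what any of the pairs without 5-aza-dc gave, and pairs with it gave 891 to 1086. The called windows were shallow. Those higher had a median of 72 calls in the vehicle control and 70 after theophylline, and those lower 83.5 and 55, against 427 for all windows after theophylline. In 118 of the 305 higher windows the vehicle control alone lay outside the other libraries, in 53 theophylline alone did, in 119 both did and in 15 neither did. In the 200 lower windows these numbers were 37, 84, 68 and 11.

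Of the 272985 windows with at least 30 calls in all 5 libraries, theophylline lay at least 10 points above the other 4 in 405 (0.148%) and at least 10 points below them in 623 (0.228%). For the vehicle control these counts were 184 and 930, for etoposide 382 and 935, for propyl gallate 297 and 790, and for 5-aza-dc 243 and 3770. At this gap theophylline had the most windows above the others and the fewest below, whereas at a gap of 25 points it had 9 above and etoposide 10. Counting any size of gap, it was the highest library in 74945 windows (27.5%) and the lowest in 33183 (12.2%). For etoposide the shares were 22.2% and 16.4%, and for propyl gallate 21.5% and 15.6%.

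**Figure D2:**
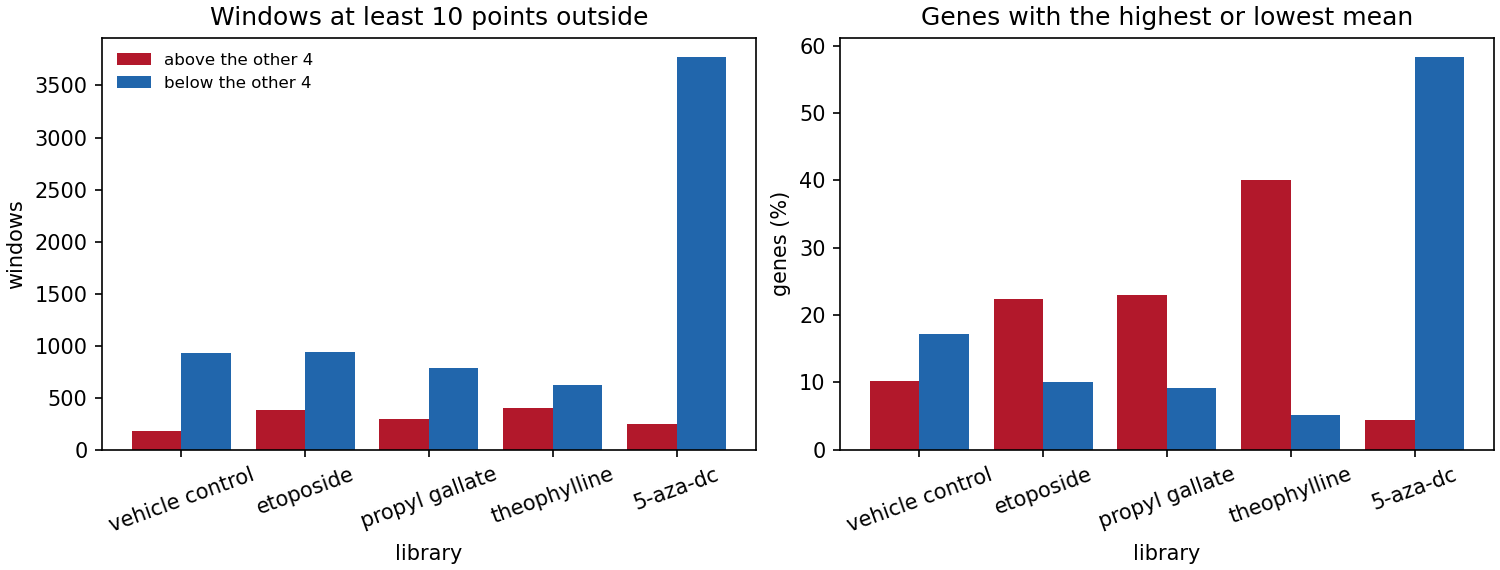
Left, windows in which each library lay at least 10 percentage points above or below all others, of 272985. Right, percent of 15523 genes in which each library had the highest or the lowest mean β-value; theophylline was highest in 40.1% and lowest in 5.22%.

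The largest rises among windows with an adjusted p under 0.01, at least 30 calls in all libraries and theophylline outside the others were found at PGM5P2, ENSG00000287067, ZXDA, DCAF12L2, ENSG00000234710, MIR887, Y_RNA, CCDC54-AS1, PAPOLB and ENSG00000227712. PGM5P2 is a pseudogene of a phosphoglucomutase relative. Its island window over the gene start (chromosome 9, 41074001 to 41075000) had 18 methylated calls of 98 in the vehicle control (18.4%, with 11.9% to 27.2% as its 95% Wilson interval) and 69 of 83 after theophylline (83.3%, 73.7% to 89.7%). The other libraries spread from 32.8% to 50%, so theophylline stood 33.3 points above the next one and the vehicle control was the lowest. The rise was 65.0 points (Fisher's exact test, adjusted p 7.22e-16).

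At DCAF12L2, a WD-repeat gene on chromosome X, the window from 126165001 to 126166000 lies in an island and in the 5′ UTR. Of its calls, 63.0% of 206 were methylated in the theophylline library, against 12.2% of 811 in the vehicle control, 13.4% of 718 with etoposide, 18.6% of 835 with propyl gallate and 15.2% of 721 with 5-aza-dc (adjusted p 4.33e-43, Fisher's exact test). The 4 other libraries sat within 7 points of each other and theophylline 44.4 above them. The windows on both sides did not follow, at 86.2% and 85.4% to the left and 3.17% and 3.52% to the right. The theophylline library had 0.299 times the control's share of calls in this window, and the part of this in the difference was not tested.

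At PAPOLB, a testis poly(A) polymerase, the 5′ UTR island window from 4861001 on chromosome 7 had 12.4% in the vehicle control and 57.2% after theophylline. The others lay at 1.05% after etoposide, 14.96% after propyl gallate and 29.8% after 5-aza-dc, a wide spread below theophylline. ZXDA, a zinc finger gene on chromosome X, had 32.2% and 84.2% in an exonic island window from 57909001, with the others between 20.6% and 67.5%. In this window the theophylline library had 0.302 times the control's share of calls. ENSG00000287067, on chromosome 5 from 137755001, had 0 of 61 calls in the vehicle control and 60.9% after theophylline, and 0% after propyl gallate and 5-aza-dc. Etoposide also had 45.2% there, so theophylline was not alone. CCDC54-AS1, an antisense RNA gene, had all 258 calls methylated after theophylline and 55.2% in the vehicle control, while the others had 84.0% to 91.9%. There the theophylline share of calls was 3.50 times the control's. The window of CCDC54-AS1 and those of MIR887 and ENSG00000234710 had the vehicle control far below most libraries, and theophylline only 7.93 to 11.7 points above the nearest one.

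The largest falls were at ENSG00000259870, NR4A2, PIK3IP1-DT, ZNF791, LINC02940, ACTB, SPRING1, LINC00566, MED15 and RARRES2P2. The window nearest to ACTB, the gene of cytoplasmic actin, lies outside it, 11099 bases from its start (chromosome 7, 5575001 to 5576000, far from islands). Here 10 of 82 calls were methylated in the theophylline library (12.6%) and 113 of 204 in the vehicle control (55.4%), with etoposide at 50.8%, propyl gallate at 56.1% and 5-aza-dc at 54.3%. The 4 other libraries lay within 6 points of each other and theophylline 38.2 points below them (adjusted p 1.46e-09, Fisher's exact test). The windows beside it were at 59.6% and 60.3% to the left and 96.5% and 95.7% to the right, with no such drop.

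SPRING1, which regulates the SREBP pathway of sterol synthesis, had a window over an intron-exon boundary (chromosome 12, 116717001 to 116718000) with 286 of 290 calls methylated in the vehicle control (98.6%) and 34 of 60 after theophylline (56.5%). The others lay at 87.0% to 98.3%, so theophylline was 30.5 points below the next. Its share of calls there was 0.244 times the control's. LINC02940 had 100% in the vehicle control and 56.7% after theophylline, with the others between 95.2% and 100%, on 36 calls in each other library. LINC00566 had 98.8% and 56.8%, with the others at 85.1% to 91.7%. RARRES2P2, a pseudogene, had 61.9% and 22.9% in an island window over its start, with the others at 71.2% to 77.2%. NR4A2, a nuclear receptor gene whose own body lies 24653 bases off, had 81.7% and 33.3%, but etoposide had 37.3%. The low values rest on 31 calls after theophylline and 43 after etoposide, and the other libraries had 232 to 314. The part of this in the difference was not tested. PIK3IP1-DT had 92.7% and 47.0%, with the others at 54.2% to 59.8%, so there it was the vehicle control that stood apart.

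The windows next to these mostly did not share their difference. The 28 windows named here or among the promoters had 54 neighbours in the table within 3 windows. In 26 of these neighbours the difference had the same direction, in 2 it had that direction and at least 10 points, and in 1 it had that direction and an adjusted p under 0.01. In 6 it had the opposite direction and an adjusted p under 0.01. Of all windows, 8.13% were higher and 2.86% lower at this adjusted p, and 59.9% were higher and 39.3% lower at any size. The counts of directions and adjusted p are thus not read as a result about the neighbours. The median size of the difference in the neighbours was 1.77 points.

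Gene starts in CpG islands are the windows where methylation is tied to silencing. Of 11668 such windows with at least 30 calls in all libraries, theophylline was the highest library in 3186 (27.3%) and the lowest in 1545 (13.2%). EPB41L4A-AS1 is a long non-coding RNA gene. Its promoter window (chromosome 5, 112160001 to 112161000) had a methylated share of 60.8% in the vehicle control (791 of 1301 calls, 58.1% to 63.4%) and of 87.3% after theophylline (700 of 802, 84.8% to 89.4%). Etoposide had 53.0%, propyl gallate 61.4% and 5-aza-dc 56.6%. The 4 other libraries lay together and theophylline 25.8 points above them (Fisher's exact test, adjusted p 3.93e-37).

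CDKN2D, which encodes the cell cycle inhibitor p19INK4d, had 66 of 285 calls methylated in the vehicle control (23.2%) and 96 of 207 after theophylline (46.4%) in the window from 10569001 on chromosome 19. Etoposide had 1.77%, propyl gallate 0% and 5-aza-dc 3.37%. Both libraries of the comparison were thus above all the others. The RefSeq start of CDKN2D lies in the window to the left, at 1.19% and 2.01%. The start used here lies in the window from 10569001. The window to its right was at 92.7% and 96.6% (adjusted p 0.00386, Fisher's exact test), the neighbour that shared both direction and an adjusted p under 0.01. SLC6A4, the serotonin transporter, had 1 of 46 calls in the vehicle control (2.17%) and 32 of 113 after theophylline (28.5%) in the island window upstream from 30236001 on chromosome 17, with the others at 0% to 5.59%. The RefSeq promoter of SLC6A4 lies in the window to its left, at 3.69% and 7.58%. PDLIM2, a ubiquitin ligase that acts on NF-κB, had 31.5% and 57.7% over its start, with the others at 32.8% to 45.4%.

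COQ10A, which binds coenzyme Q in mitochondria, lost methylation in the island window over its start. Its window from 56266001 on chromosome 12 went from 93.0% (253 of 272 calls) to 55.1% (170 of 308). Etoposide had 86.1%, 5-aza-dc 84.4% and propyl gallate 68.0%, so theophylline was the lowest by 13.0 points (adjusted p 5.51e-23, Fisher's exact test). The window to its right, over the first part of the gene, was at 2.92% and 2.78%. The falls at ENSG00000225806, MIR4522 and RN7SL160P, from 62.3% to 31.4%, 93.4% to 65.0% and 49.7% to 24.01%, each had another chemical within 2.33 points of theophylline.

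For each gene the β-values of all windows on its body and on the 1500 bases before its start were averaged. Of 15523 genes with at least 5 windows, theophylline had the highest mean of the 5 libraries in 6223 (40.1%) and the lowest in 810 (5.22%). With at least 2 points of difference from the vehicle control these were 2320 (14.9%) and 236 (1.52%). Etoposide was the highest in 22.4% and propyl gallate in 23.01%. The median difference of all genes was 0.827 points after theophylline, 0.441 after etoposide, 0.479 after propyl gallate and -0.936 after 5-aza-dc. Large gaps were rare for every library except 5-aza-dc, and theophylline lay at least 5 points above all others in 9 genes and below in 5.

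The genes farthest above the vehicle control, with theophylline outside the range, were HYLS1, FRG1HP, ENSG00000227712, APOBEC3A, TRIM52-AS1, C11orf21, MYRF-AS1 and FBXL21P. HYLS1, a centriole protein, had the largest mean difference, 50.2% and 63.9%, but it came from 1 window with 28 calls in the vehicle control, in which all 4 chemicals had 58.0% to 72.8%. Without it the difference was -1.08 points. FRG1HP holds the window of PGM5P2 and differed by 12.0 points, or 4.43 without that window and -0.771 over only the windows that the table assigns to it. APOBEC3A, a cytidine deaminase that acts on single-stranded DNA, had 75.3% in the vehicle control and 84.6% after theophylline, with the others at 76.9% to 78.3%. In 9 of its 10 windows theophylline was above the vehicle control, and the difference was 5.89 points without the largest window, but no window had an adjusted p under 0.01.

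C11orf21 had 77.7% in the vehicle control, 78.3% to 83.0% after the other chemicals and 86.8% after theophylline. All 6 of its windows were higher and the difference was 6.52 points without the largest. FBXL21P, a pseudogene of an F-box gene, was higher in all 5 windows, from 62.3% to 71.0%, and differed by 6.26 points without the largest. ENSG00000227712 was higher in 6 of 7 windows and differed by 3.87 points without the largest. Each of these genes was higher over most of its windows.

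The genes farthest below it were LINC00710, LDAH, SPRING1, CYB561A3, ENSG00000235138, DEPP1, LARP6 and PDZK1. LDAH, a hydrolase of lipid droplets, went from 83.3% to 71.9%, with the others at 79.9% to 82.2%. The difference came from the promoter window whose sequence is given above (chromosome 2, 20823001 to 20824000), with 20 of 22 methylated calls for the vehicle control, 19 of 186 for theophylline and 92.6% to 100% for the others, on 12 to 25 calls. Without this window LDAH differed by -2.71 points. DEPP1, a gene induced by FOXO factors, had 59.7% and 52.2%, with the others at 59.2% to 62.6%, and differed by -6.32 points without its largest window. It was higher in 1 of 6 windows, but with calls pooled over the windows the difference was 4.13 points. LARP6, which binds collagen mRNAs, went from 59.2% to 51.8% and differed by -4.72 points without its largest window. In its island window from 70841001 on chromosome 15, the share was 96.1% in the vehicle control (299 of 311 calls) and 78.6% after theophylline (134 of 170), with the others at 88.1% to 94.1%. SPRING1 differed by -10.2 points, and by -2.17 without its largest window. The differences of LINC00710 and ENSG00000235138 were -0.41 and -0.07 points without 1 window each.

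Neighbouring windows were also joined. Theophylline lay above the other 4 libraries in at least 3 neighbouring windows, with starts at most 2000 bases apart, in 1206 runs, and below them in 133. The vehicle control had 263 and 417, etoposide 623 and 277, propyl gallate 604 and 227, and 5-aza-dc 120 and 2782. The longest run above the others after theophylline had 6 windows. The 5 runs with the largest difference were all higher. The first, in SCARF1, a scavenger receptor, on chromosome 17 from 1637001 to 1640000, had 74.1% in the vehicle control and 89.1% after theophylline over 3 windows, with the others at 71.6% to 84.6%. At PTTG1IP on chromosome 21 from 44841001 to 44845000, 3 windows had 64.1% and 78.1%, with the others at 66.4% to 70.4%, and the windows differed by 12.9 to 14.5 points. Near LINC02648 on chromosome 10 from 6646001 to 6649000, the values were 57.3% and 70.6%, with the others at 56.0% to 61.0%. The run by RNU5D-2P on chromosome 9 had 83.2% and 97.9%, and that by ENSG00000275157 on chromosome 2 had 75.3% and 89.3%, with no other library above 92.5% and 80.2%.

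Gene lists were taken from the pharmacology of theophylline and from stem cell biology, and are read against the 40.1% of all genes above and 5.22% below the other libraries and the median of 0.827 points. Of the direct targets, the phosphodiesterases and adenosine receptors, 23 of 28 had at least 5 windows. Theophylline was above the other libraries in 8 (34.8%) and below in 0, and the median difference was 0.657 points. PDE11A, which breaks down both cAMP and cGMP, differed most, from 78.3% to 81.9% over 21 windows, with the others at 79.4% to 80.2%. Its largest window, overlapping the gene from 177763001 on chromosome 2, had 29.4% of 109 calls and 54.0% of 98, and the others 29.6% to 39.4%. In another, from 177634001, it was lower, at 31.3% and 13.3%, with etoposide at 14.6%. PDE2A differed by 2.26 points and PDE10A, over 72 windows, by 1.56, both above the range. PDE7B had the largest difference downward, at -1.35 points, within the range of the others. PDE4A, PDE3A, PDE3B and PDE4C lay above the range by their means with differences of 0.822, 0.736, 0.458 and 0.489 points. The 4 adenosine receptors gave 3 genes with enough windows, ADORA1 at -0.277 points, ADORA2B at 0.547 and ADORA2A at 0.693, none outside the range.

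At the promoters of these targets, windows over the gene start were in the table for 15 of the 28, and their median was 1.94% in the vehicle control and 1.88% after theophylline. None had an adjusted p under 0.01, beside 8.13% of all windows higher and 2.86% lower, so a count of 0 among 15 is near that background. The largest difference was 5.05 points, at the methylated start of PDE6A, a photoreceptor enzyme.

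In the cAMP pathway downstream, 10 of 25 genes (40%) were above the range and 0 below, with a median of 0.647 points. PRKAR2A, a regulatory subunit of protein kinase A, differed by 2.78 points over 17 windows, and PRKAR1B by 2.14 over 106, of which 76 were higher. ADCY9, an adenylate cyclase, differed by 1.25 points over 44 windows. PRKAR2B had the largest difference downward, at -1.06 points and inside the range. CREB1 differed by 2.54 points but etoposide had the higher mean. Of 23 promoter windows, none had an adjusted p under 0.01, beside 8.13% of all windows higher and 2.86% lower. The median of these promoters was 0.974% and 0.989%.

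Among the genes of theophylline and purine metabolism 3 of 7 were above the range and 1 below. XDH, the xanthine oxidase that makes uric acid, went from 92.1% to 95.9% over 5 windows, with 5-aza-dc at 95.3%. AHR, the receptor that induces CYP1A2, lay below the range at -1.58 points, and without a window of 10 calls after theophylline the difference was 1.06. Histone deacetylases had 5 of 11 above and 2 below. HDAC4, a class II enzyme, differed by 1.57 points over 154 windows and HDAC1, a class I enzyme, by -1.56 over 11, of which 3 were higher. Calcium release channels and PI3 kinases had 5 of 10 above and 0 below, with a median of 1.501 points. ITPR1, an IP3 receptor, differed by 2.84 points with 17 of 24 windows higher, and PIK3R1 by -1.31 within the range.

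Of 14 genes that set or read methylation, theophylline was above the range in 6 and below in 1, with a median of 0.595 points. DNMT3L, a cofactor of the de novo enzymes, differed by 2.82 points, and 0.921 without its promoter window. DNMT3A differed by 1.11 points, DNMT1 by -0.416 and TET1 by 0.111. The 11 promoter windows of this list stayed at or under 2.01% after theophylline. None had an adjusted p under 0.01, beside 8.13% of all windows higher and 2.86% lower.

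Imprinted genes carry methylation on a single parental copy, so control regions that keep this state sit near the middle of the scale. Theophylline was above the range in 6 of 20 (30%) and below in 2 (10%), with a median of 0.799 points. KCNQ1OT1, a non-coding RNA that silences its neighbours on the paternal copy, had the largest difference of all listed genes, from 60.9% to 67.7%, with the others at 61.1% to 64.2%. Around its start the windows on chromosome 11 from 2698001, 2699001 and 2700001 all had theophylline highest. In the last, theophylline had 52.9% (948 of 1792 calls) and the vehicle control 39.3% (797 of 2029), with etoposide at 46.4%, propyl gallate at 31.3% and 5-aza-dc at 44.7% (Fisher's exact test, adjusted p 4.22e-14). The other libraries alone spread over 15 points there. H19, the maternally expressed RNA of the same chromosome arm, went from 69.2% to 74.4%, with etoposide at 73.9%. Its window from 1999001 had 1331 of 3029 calls in the vehicle control and 1407 of 2342 after theophylline. DLK1 differed by 3.08 points. PEG3 had the largest difference downward, at -2.39 points, within the range of the others.

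Imprinted promoters differed in both directions. MAGEL2 had 306 of 878 calls in the vehicle control (34.9%) and 312 of 617 after theophylline (50.6%), with the others at 40.5% to 45.6%. ZNF597 had 745 of 2705 (27.5%) and 339 of 2229 (15.2%), with the others at 17.5% to 34.4%. NNAT, a membrane protein of the brain, had 25.5% and 20.6%, while the others had 34.7% to 41.1%. The spread of the other 4 libraries exceeded the difference from the vehicle control at NNAT and ZNF597.

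Pluripotency genes had 3 of 8 above the range and 0 below, all 8 higher than the vehicle control. L1TD1, an RNA-binding protein of pluripotent cells, differed most, by 3.91 points, but by 0.131 without 1 window of 20 calls. KLF4 had the smallest difference, from 2.76% to 3.02%. Germline genes, a list of genes known to be silenced by promoter methylation in somatic cells, had 1 of 10 above and 0 below. STK31, a testis kinase, was higher in all 7 windows, from 76.3% to 82.6%, with the others at 77.9% to 79.7%. Its promoter window had 88.4% and 92.8% (adjusted p 0.0599, Fisher's exact test). Not all promoters of this list were methylated, and MAEL had 0.613% in the vehicle control. Of 10 promoter windows, 5 had an adjusted p under 0.01: SYCP3 (94.8% and 97.2%) and TUBA3C (85.7% and 91.2%) were higher, and PIWIL2 (46.7% and 38.2%), TEX14 (29.8% and 21.6%) and DPEP3 (81.5% and 75.8%) were lower. Of these, SYCP3 alone had theophylline outside the range of the other libraries. Over all windows, 8.13% were higher and 2.86% lower at this adjusted p. The 5 windows held 644 to 4494 calls in the vehicle control, where the median of all windows was 499. DAZL had the largest difference downward, from 95.3% to 93.2%, and 5-aza-dc had 90.3%. The genes that vary between iPSC lines had 6 of 12 above and 0 below, with COL14A1 at 3.62 points, 15 of 22 windows higher, and FZD10 at -0.186.

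HOX genes were the list with a median below 0. Of 17 with enough windows, 4 were above and 2 below the range, 7 were higher than the vehicle control and the median was -0.597 points, with -0.609 after etoposide, 0.310 after propyl gallate and -2.19 after 5-aza-dc. HOXB7 differed most, from 11.2% to 8.60% over 20 windows, and 5-aza-dc had 8.38%. HOXA10 differed by 1.73 points in the other direction. Many windows of these genes are shared, since the genes overlap in their clusters. In neuroectoderm genes 6 of 8 were above and 0 below, at small differences with a median of 0.403 points. PAX3 differed most, by 1.21 points, and ZIC1 least, by 0.0942. Mesoderm and endoderm genes had 1 above and 1 below of 8, GATA4 at 1.34 and GATA6 at -0.530 points. Fibroblast genes had 1 of 6 above. PDGFRB, a growth factor receptor, went from 82.1% to 87.7%, with the others at 83.2% to 85.0%, was higher in 10 of 11 windows and differed by 4.77 points without the largest. THY1 had the largest difference downward in that list, at -1.03 points.

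**Figure D3:**
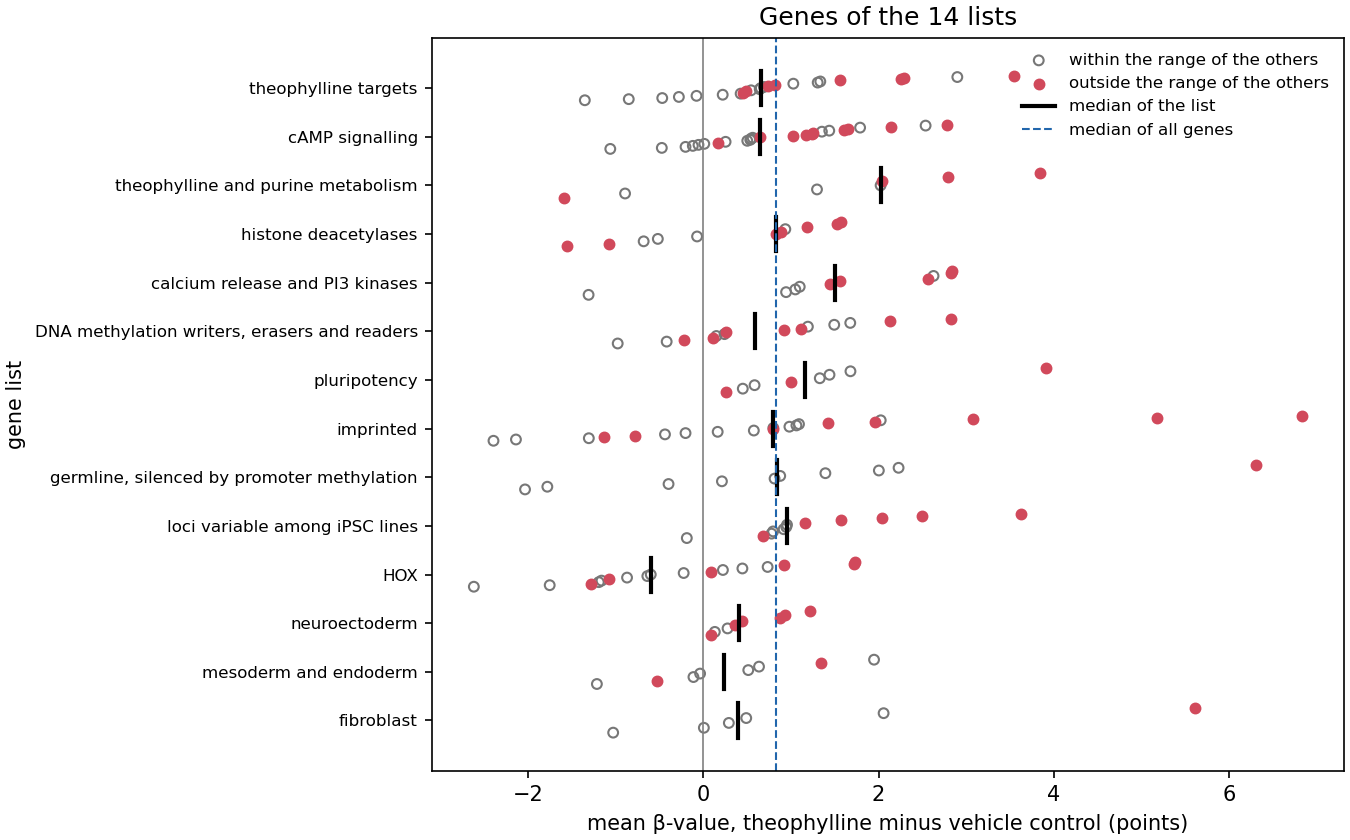
Difference in mean β-value, theophylline minus vehicle control, in percentage points (x axis) for each gene of the 14 lists, 1 point a gene with at least 5 windows; filled points lie outside the range of the other 4 libraries. List medians lie between -0.597 (HOX) and 2.02 points (theophylline and purine metabolism), beside 0.827 for all genes.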

How the data were processed

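RRBS libraries of 201B7 cells, 1 per condition, were made with a Zymo-Seq RRBS kit and sequenced on a NovaSeq. Per the submitters' processing notes, the authors used Trim Galore 0.5.0, Bismark 0.20.0, SAMtools 1.9 and methylKit 1.10.0 on hg38, in windows of 1000 bases. The authors deposited methylated and unmethylated call counts per window, which are unscaled counts for the vehicle control, scores (counts multiplied by a factor per library and rounded) for the other libraries, and β-values, the fraction of calls that were methylated. The factors were found from the values (1.15 for theophylline), and dividing by them gave back the deposited coverage in 99.9861% to 100% of windows. Fisher's exact test (two-sided, Python 3.11.15, own code checked against scipy 1.17.1 and tested on simulated data) ran on these unscaled calls, where counts as deposited had been planned. No per-sample column was left unused.

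Members and gene lists were chosen with earlier results of these data known. Named windows had an adjusted p under 0.01, at least 30 calls in all 5 libraries and theophylline outside the others; the 10 largest rises and falls were taken, with 5 island promoters each way, 8 genes each way and 5 runs. Sequences of 23 of 42 named symbols matched RefSeq. Windows held 10 calls or more, at a median of 398 to 499 per library. No replicate exists, so the precision is that of counting alone. The alternatives tried changed the call minimum, difference, reference and gene definition.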

Additional observations from a re-analysis of the deposited data

How the results depend on the processing

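No paired analysis was possible because each condition was 1 library. The 305 windows called higher and 200 lower became 57 and 34 with at least 100 calls, 1456 and 741 at 15 points, 192 and 123 at an adjusted p under 0.001, and 62 and 50 with calls divided by 2. Against the other 4 libraries together 98 were higher and 147 lower, so the balance between higher and lower windows turned with the reference library. The mean difference of 0.975 points was 1.495 with calls pooled, 0.695 as a median, 0.963 before scaling and 0.963 against the other 4. In islands it was 1.20 pooled, 0.172 as a median and 0.596 against the other 4, in shores 1.14, 0.797 and 1.01, and far from islands 1.153, 1.00 and 1.04, with 1.095 before scaling. In shelves the median was 0.948. The direction stayed upward in each of these. The pooled 1.495 lay above the pooled value of every CpG context. It thus also holds a difference between the libraries in how calls were spread over contexts. Windows with theophylline 10 points above the others, 405, were 9 at 25 points and 188 with at least 100 calls. Those below, 623, were 18 and 202, and 1097 with at least 10 calls. Genes above, 2320, were 3747 over the windows the table assigns, 3650 pooled and 161 at 5 points. Genes below, 236, were 472, 401 and 19, and 556 with at least 3 windows.

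Single genes turned direction. HYLS1 was at -0.198 points pooled and -1.08 with at least 30 calls, FRG1HP at -0.771 over the table's windows, MYRF-AS1 at -0.401 pooled, CYB561A3 at 4.18 pooled and 2.94 over the table's windows, ENSG00000235138 at 0.972 and DEPP1 at 4.13 pooled, and PDZK1 at 0.239 with at least 30 calls. At a minimum of 30 calls, shallow windows leave the mean; for the other reversals the cause was not tested. With calls divided by 2, 7 named windows lost an adjusted p under 0.01. Called windows were shallow, which limits single windows, and no spread between cultures could be measured.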
